A study of Mus musculus with 4 samples.

Results

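The genes described here are 10 regulators of the G1 phase of the cell cycle, namely the CDK inhibitor genes Cdkn1a, Cdkn1b, Cdkn2c and Cdkn2d, the cyclin genes Ccnd2, Ccnd3, Ccne1 and Ccne2, and the kinase genes Cdk4 and Cdk6. They were taken by symbol, and all 10 were present among the 52636 genes measured by RNA sequencing. The cells were C57BL/6 mouse Th17 cells, helper T cells that secrete interleukin 17, in 2 groups of 2 libraries each, PP2A WT and PP2A cKO. PP2A, a serine/threonine phosphatase, is built from catalytic, scaffold and regulatory proteins. The sources used here do not give the deleted subunit, the Cre driver or the age of the mice. All 4 libraries came from naive cells grown for 2 days with 3 irradiated antigen presenting cells (autologous) per naive cell. The culture held antibodies to CD3 and CD28 at 2 µg/ml, TGF-β1 at 2 ng/ml, IL-6 at 20 ng/ml, and antibodies to IL-4 and IFN-γ at 10 µg/ml. PMA at 50 ng/ml and ionomycin at 500 ng/ml, which bypass the T cell receptor, were then given for 4 h. The comparison asks how Th17 differentiation depends on PP2A.

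During G1, D-type cyclins bind CDK4 or CDK6 and E-type cyclins bind CDK2, and both kinase pairs phosphorylate the retinoblastoma protein so that E2F factors can switch on the genes of DNA replication. Inhibitors of the Ink4 family, such as p18 (Cdkn2c) and p19 (Cdkn2d), bind CDK4 and CDK6 alone, while those of the Cip/Kip family, such as p21 (Cdkn1a) and p27 (Cdkn1b), bind cyclin and kinase together. In T cells, activation through the antigen receptor induces the D-type cyclins, and Cdkn1a is a textbook target of the tumour suppressor p53.

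Levels are given as FPKM, fragments per kilobase of gene scaled to the size of the library, so that genes can be compared within a library. The libraries held 18517487 to 20387948 gene-assigned reads, and each of the 10 genes rested on 644 to 29703 reads per library, a counting error of at most 3.94%. Differences were tested with limma on log2(FPKM + 1) over all 10562 genes whose mean reached 1 FPKM, with Benjamini-Hochberg adjusted p-values called under 0.05. All 10 genes passed that filter. This test called 86 genes higher and 27 lower in cKO, which is 0.814% and 0.256% of those tested. Of protein-coding genes scaled and tested alone it called 188 higher and 320 lower (2.04% and 3.47%). After a correction for transcript GC content it called 2.7% and 2.24%, and limma voom on reads recovered from the FPKM values called 286 and 257 genes, or 2.71% and 2.43%. The libraries are called biological replicates, but how mice or cultures were kept apart is not said, so the p-values measure only the spread between these libraries, which may be technical. None of the 4 catalytic and scaffold genes of PP2A passed. The catalytic gene Ppp2ca had 42.2 and 50.1 FPKM in WT against 41.8 and 34.5 FPKM in cKO. Ppp2cb, the other catalytic gene, was more abundant, with 95.4 and 89.6 FPKM in WT and 91.3 and 102.6 FPKM in cKO. The levels of these 4 genes therefore gave no check of the genotype labels, on which every direction here rests. Exons of Ppp2ca overlap the noncoding gene 9430098F02Rik on the other strand.

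The 2 cKO libraries differed from each other along transcript GC content (Spearman's rho = -0.53 across genes), GC-rich genes being lower in cKO replicate 1. The difference between the cKO and WT means also followed GC content (rho = -0.25). The GC content of the 10 genes ran from 36.3% for Ccne2 to 58.0% for Cdkn2c, and values after a GC correction are given where they change a call. Markers of the antigen presenting cells were near 0, with summed levels of 0.407 to 0.772 FPKM for 7 B cell genes and 0.357 to 0.924 FPKM for 10 myeloid genes, of which Clec9a and Siglech were at 0. The summed level of 7 general T cell markers was 632 and 643 FPKM in WT and 820.2 and 774 FPKM in cKO. That of 8 Th17 markers was 4472 and 4148 FPKM in WT and 3300.5 and 3198 FPKM in cKO. The highest single value among these 8 was 3318 FPKM, so the sum is weighted to 1 gene and does not show that all 8 were lower. None of these 15 markers passed the test, and their part in the results below was not tested. In such bulk samples, fewer cells with a transcript and less of it per cell cannot be told apart.

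Of the 10 genes, Cdkn1a rose in cKO and none fell, against 1.07% of all tested genes called in either direction. Both cKO libraries lay above both WT libraries for 3 genes and below them for 4, and the groups did not overlap for 55.9% of all tested genes. The median difference of the 10 genes was -0.14 on the log2 scale, beside -0.00337 for all tested genes. The 10 genes thus did not share a direction.

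**Figure D1:**
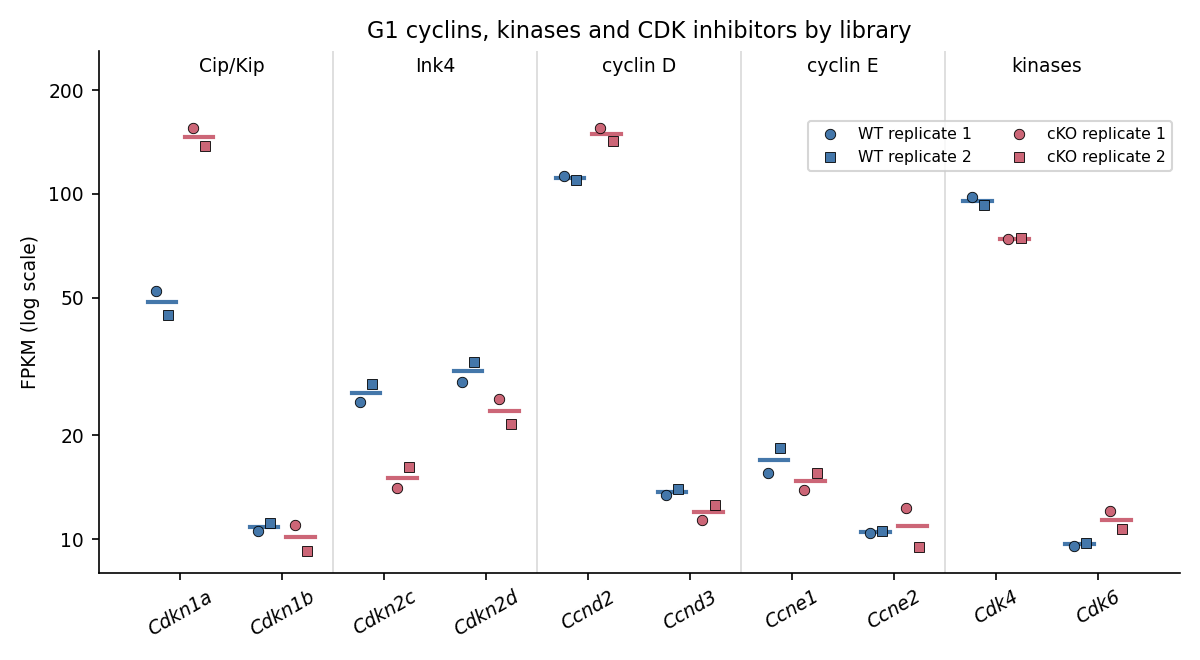
FPKM (y axis, log scale) of the 10 genes (x axis) in each of the 2 WT and 2 cKO libraries, with horizontal bars at the genotype means. Cdkn1a moves from 52.5 and 44.7 FPKM (WT) to 155 and 138 FPKM (cKO), while Cdkn2c and Cdk4 lie lower in both cKO libraries.

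Cdkn1a, which encodes p21, was the member with the largest difference. Its level was 52.5 and 44.7 FPKM in WT and 155 and 138 FPKM in cKO, from 1898 to 6993 reads per library. Both cKO values were above both WT values by a margin wider than the gap within either genotype. The mean rose from 48.6 ± 5.51 to 146 ± 12.2 FPKM (SD, n = 2), 3.01-fold, a log2 difference of 1.57 ± 0.13 (SE; limma, adjusted p = 0.0242). Among all tested genes this difference ranked 23 from the highest, and it was 1.64 after the GC correction. The call was lost without WT replicate 2 (limma, adjusted p = 0.0697), where 0.464% of tested genes were called higher and 0.0568% lower, and without the filter on low values (adjusted p = 0.161). In the latter fit limma called 0 of 21807 genes, of which 3012 had an unadjusted p under 0.05.

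Cdkn1a lies on the plus strand of chromosome 17 from 29090979 to 29100722 (GRCm38) and has more than 1 annotated start site. RefSeq (GRCm38.p6) gives windows for 2 of them, and the 250 bases before each are shown because the upstream window holds a match to the p53 response element, in capitals. The first window ends at the gene's most upstream start (chr17:29090729-29090978, plus strand) and the other at the start within the gene (chr17:29093519-29093768, plus strand).
Cdkn1a upstream start: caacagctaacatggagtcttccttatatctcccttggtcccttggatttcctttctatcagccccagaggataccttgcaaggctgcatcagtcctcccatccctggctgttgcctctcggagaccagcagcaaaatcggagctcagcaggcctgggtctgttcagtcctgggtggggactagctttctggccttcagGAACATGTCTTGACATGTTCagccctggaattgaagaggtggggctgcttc
Cdkn1a inner start: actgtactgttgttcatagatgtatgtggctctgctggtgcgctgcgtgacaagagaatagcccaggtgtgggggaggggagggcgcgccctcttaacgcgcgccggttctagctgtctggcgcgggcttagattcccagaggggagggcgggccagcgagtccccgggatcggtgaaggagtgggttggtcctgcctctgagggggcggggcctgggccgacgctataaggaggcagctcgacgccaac
The match spans 29090928 to 29090947, begins 51 bases before the start site and departs from the consensus at 1 base. The search took a pair of adjacent consensus half-sites on either strand with at most 1 mismatch outside the core letters. It found a match in 15 of 32851 such windows, or 0.0457%, and in 1 of the 11 windows found for 8 of the 10 genes. The genes without a window were Ccnd2 and Ccne2. Of the 15 genes with a match, 3 passed the filter on levels, and Cdkn1a was the one called, beside 1.07% of all tested genes. Its call was known before the search. Whether a match goes with a higher level in cKO was not tested, and 3 genes are too few to show it. Rps27l, a small ribosomal protein gene known as a p53 target, had 107 and 116 FPKM in WT and 159.9 and 119 FPKM in cKO (limma, adjusted p = 0.365), and Calhm2, a channel gene, had 6.02 and 5.87 against 5.28 and 6.59 FPKM (adjusted p = 0.971). The E2F motif, searched as TTTCCCGC, TTTCGCGC, TTTGGCGC or TTTGCCGC on both strands, was in none of the 11 windows and in 1.86% of all windows. At so low a share, the lack of a match in 11 windows says little about whether these genes have E2F sites. FPKM per gene does not separate the start sites, so the share of each in the Cdkn1a level was not measured.

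Cdkn1b (chromosome 6, 134920401 to 134925513) encodes p27, a Cip/Kip inhibitor that holds resting T cells out of the cycle. It had 10.5 and 11.1 FPKM in WT and 11.0 and 9.25 FPKM in cKO. The genotypes overlapped, with cKO replicate 1 between the WT values. The log2 difference was -0.09 with a 95% interval from -0.37 to 0.19 (limma, adjusted p = 0.657). The third Cip/Kip gene, Cdkn1c, stayed under the filter at 0.326 and 0.308 FPKM in WT and 0.362 and 0.354 FPKM in cKO.

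Both Ink4 genes that passed the filter had lower values in cKO than in WT, short of the threshold. Cdkn2c, which encodes p18 (chromosome 4, 109660876 to 109667189), had 24.9 and 28.1 FPKM in WT and 14.02 and 16.1 FPKM in cKO. All cKO values were below all WT values, and the WT mean was 1.76-fold the cKO mean. The mean was 26.5 ± 2.27 FPKM in WT and 15.1 ± 1.504 FPKM in cKO (SD, n = 2), a log2 difference of -0.77 ± 0.12 (SE; limma, adjusted p = 0.0573). It was just outside the threshold, and voom (adjusted p = 0.0182), a GC correction (-0.65, adjusted p = 0.0358) and protein-coding genes only (adjusted p = 0.0263) each called it lower. A replicate block, a fit that called 1.46% of genes higher and 0.691% lower, also did (adjusted p = 0.0434), but the block with the GC correction did not (adjusted p = 0.0590). Without cKO replicate 2 the log2 difference was -0.87. Counting that fit, which leaves 1 cKO library, Cdkn2c was called in 5 of 17 alternatives and not in 12. Its log2 difference ran from -0.89 to -0.65 over the 17.

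Cdkn2d, which encodes p19 (chromosome 9, 21288410 to 21291407), had 28.6 and 32.6 FPKM in WT and 25.5 and 21.6 FPKM in cKO. The groups did not overlap, but the gap between them was smaller than the gap within either genotype. The log2 difference was -0.36 (95% interval -0.69 to -0.04; limma, adjusted p = 0.208). The remaining Ink4 genes were barely detected in every library. Cdkn2a, the Ink4a and Arf locus, had 0.567 and 0.625 FPKM in WT and 0.294 and 0.396 FPKM in cKO, from 7 to 14 reads. Cdkn2b, which encodes p15, had 0.257 to 0.333 FPKM over the 4 libraries.

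**Figure D2:**
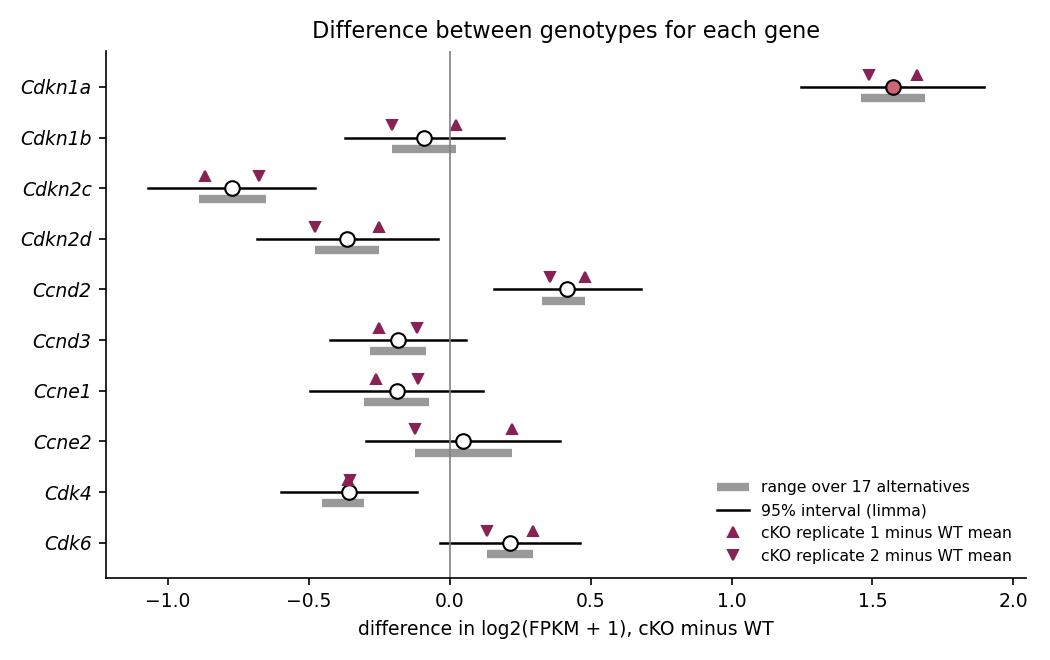
Difference in log2(FPKM + 1) between cKO and WT (x axis) for the 10 genes (y axis), with the 95% interval of the limma fit as a line, each cKO library against the WT mean as triangles and the range over 17 other settings as a grey bar. The filled circle marks Cdkn1a, at 1.57, as the gene past the threshold, and the intervals of Cdkn2c, Cdkn2d, Ccnd2 and Cdk4 lie to 1 side of 0 before adjustment.

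Among the D-type cyclins, which link growth signals to CDK4 and CDK6, the 2 measured genes had opposite signs. Ccnd2 (chromosome 6, 127125162 to 127152193), the most abundant of the 4 cyclin genes, had 113 and 109.5 FPKM in WT and 155 and 143 FPKM in cKO. Both cKO values were above both WT values, with a log2 difference of 0.42 ± 0.10 (SE; 95% interval 0.16 to 0.68). It did not pass after adjustment over all genes (limma, adjusted p = 0.119). Without cKO replicate 2 it passed (adjusted p = 0.0141), in a fit that called 1390 genes higher and 1614 lower, or 13.2% and 15.3% of those tested.

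Ccnd3 (chromosome 17, 47505051 to 47599691), the D-type cyclin that developing T cells depend on, had 13.4 and 13.96 FPKM in WT and 11.3 and 12.6 FPKM in cKO. Both cKO values were below both WT values, and the gap between the genotypes was smaller than that between the 2 cKO libraries (log2 difference -0.18, 95% interval -0.42 to 0.06; limma, adjusted p = 0.349). Ccnd1, the D-type cyclin of many other tissues, was under the filter at 0.197 to 0.391 FPKM. Ccnd2 made up 89.4% and 88.7% of the FPKM of the D-type cyclins Ccnd2 and Ccnd3 in WT and 93.2% and 91.9% in cKO. Its share was thus higher in both cKO libraries, by 3.51 percentage points in the mean, a value given without a test.

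The E-type cyclins, which activate CDK2 at the entry into S phase, did not pass in either direction. Ccne1 (chromosome 7, 38097984 to 38107534) had 15.5 and 18.4 FPKM in WT and 13.9 and 15.5 FPKM in cKO. The higher cKO value exceeded the lower WT value, and the log2 difference was -0.19 (95% interval -0.50 to 0.12; limma, adjusted p = 0.424). Ccne2 (chromosome 4, 11191351 to 11204779) had 10.4 and 10.5 FPKM in WT and 12.3 and 9.50 FPKM in cKO. Its cKO values lay on either side of WT, in a transcript with the lowest GC content of the 10 (36.3%), and the log2 difference of 0.05 turned to -0.07 after the GC correction (limma, adjusted p = 0.861 and 0.639). Their partner Cdk2 had 10.1 and 10.2 FPKM in WT and 7.94 and 8.64 FPKM in cKO (log2 difference -0.27, adjusted p = 0.198).

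Of the G1 kinases, Cdk4 (chromosome 10, 127063534 to 127067920) had 97.9 and 93.0 FPKM in WT and 74.0 and 74.5 FPKM in cKO. The 2 cKO libraries were nearly equal and both below WT, and the WT mean of 95.5 ± 3.46 FPKM was 1.29-fold the cKO mean of 74.2 ± 0.327 FPKM (SD, n = 2). The log2 difference of -0.36 ± 0.09 (SE) missed the threshold (limma, adjusted p = 0.133). Without cKO replicate 2 it was also -0.36. Cdk4, like Ccnd2, passed only in that fit, which leaves 1 cKO library and called far more genes than the others. Cdk6 (chromosome 5, 3341485 to 3531008), which binds the same cyclins and inhibitors as Cdk4, had 9.55 and 9.77 FPKM in WT and 12.1 and 10.7 FPKM in cKO. Both cKO values were above WT, with a log2 difference of 0.21 (95% interval -0.04 to 0.46; limma, adjusted p = 0.308). It was 0.29 without cKO replicate 2, likewise the only alternative fit that called Cdk6. Cdk4 took 91.1% and 90.5% of the summed FPKM of both kinases in WT and 86.0% and 87.5% in cKO.

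A missed threshold in this design does not show that a gene was unaltered. For 1 gene in 2 libraries against 2, the smallest two-sided p of an exact permutation test is 0.333, and the calls depend on limma's pooling of variance over genes. In reads simulated for cKO against WT with 10571 genes tested, 20.8% of genes changed 1.5-fold were recovered, 81.6% of those changed 2-fold and 98% of those changed 3-fold. The simulated reads had a single dispersion and no GC trend. Between the 2 real cKO libraries the log2 differences had an SD of 0.304 across genes, against 0.209 between the WT libraries. The recovered shares may therefore not hold for these data. Of the 10 genes, 5 had an unadjusted p under 0.05 (Cdkn1a, Cdkn2c, Cdkn2d, Ccnd2 and Cdk4), as did 19.8% of all tested genes.

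Between the genotypes, Cdkn1a and Cdk4 exchanged the second and the third place in the order of the levels, and Cdk6 and Cdkn1b the eighth and the tenth. In WT the order from the highest mean was Ccnd2 (111 FPKM), Cdk4 (95.5), Cdkn1a (48.6), Cdkn2d (30.6), Cdkn2c (26.5), Ccne1 (16.9), Ccnd3 (13.7), Cdkn1b (10.8), Ccne2 (10.5) and Cdk6 (9.66). No neighbours in that order overlapped between the 2 WT libraries, although Cdkn1b and Ccne2 nearly met at 10.5 FPKM. In cKO Cdkn1a (146 FPKM) stood at the level of Ccnd2 (149 FPKM), and the ranges of the 2 genes overlapped. Cdk4 followed at 74.2 FPKM, then Cdkn2d at 23.6 FPKM. Cdkn2c and Ccne1 overlapped at 15.1 and 14.7 FPKM, and so did each neighbouring pair among Ccnd3, Cdk6, Ccne2 and Cdkn1b, which had means from 11.9 down to 10.1 FPKM.

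**Figure D3:**
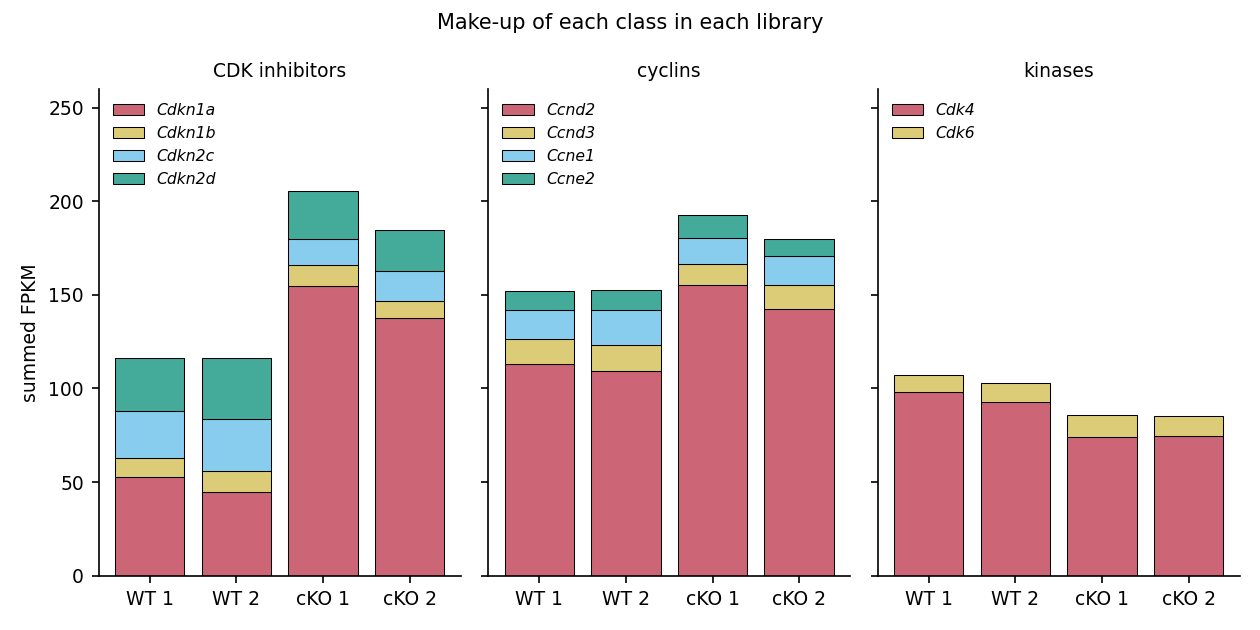
Summed FPKM (y axis, from 0) of the 4 CDK inhibitor genes, the 4 cyclin genes and the 2 kinase genes in each library (x axis), stacked by gene. The inhibitor bars reach 116.5 FPKM in each WT library and 205 and 185 FPKM in cKO, and Cdkn1a is the part that grows.

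Summed by class, the inhibitors reached 116.5 FPKM in each WT library and 205 and 185 FPKM in cKO, and the cyclins 152 FPKM in each WT library and 193 and 180.1 FPKM in cKO. The kinase sum went the other way, with 107 and 103 FPKM in WT and 86.1 and 85.1 FPKM in cKO. Cdk4 made up most of that sum, and Cdk6 by itself was higher in both cKO libraries than in WT. Of the cyclins, only Ccnd2 was higher in both cKO libraries, and Ccnd3 was lower in both. The ratio of inhibitor to cyclin FPKM was 0.765 in each WT library and 1.06 and 1.03 in the cKO libraries. Leaving out Cdkn1a, the same ratio was 0.420 and 0.471 in WT and 0.262 and 0.261 in cKO, so that its direction turned with that 1 gene. Cdkn1a took 45.0% and 38.4% of the inhibitor FPKM in WT and 75.4% and 74.5% in cKO. These sums describe mRNA per length in the libraries and carry no test.

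Around these genes, 4 further lists of genes were described in the same fit. The first held partners and regulators of the G1 machinery, among them Cdk2, the retinoblastoma family, E2F factors and ubiquitin ligase subunits. None of its 26 tested genes passed the threshold (0 in either direction by limma, beside 1.07% of all tested genes), with a median log2 difference of -0.13. Fbxo31, a ubiquitin ligase subunit known to target cyclin D1, had the largest difference among them, with 10.7 and 10.7 FPKM in WT and 5.13 and 7.19 FPKM in cKO (-0.72, adjusted p = 0.0926). By voom 3 of the 26 were lower (2.43% of all tested genes), and the omission of cKO replicate 2 gave 4 higher and 9 lower, in a fit that called 13.2% and 15.3% of all tested genes.

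E2F targets of the G1/S transition had a median log2 difference of -0.47, and of 24 tested 2 fell and none rose. Of all tested genes, 0.256% fell and 0.814% rose. Both cKO values were below both WT values for 23 of the 24, where 28.7% of all tested genes showed this. Mybl2, an S phase transcription factor gene, had 35.2 and 35.2 FPKM in WT and 15.8 and 18.4 FPKM in cKO (-1.002 ± 0.11, SE; limma, adjusted p = 0.0367). Ccna2, the cyclin of S and G2 phase, had 46.3 and 48.4 FPKM in WT and 26.9 FPKM in each cKO library (-0.79 ± 0.09, adjusted p = 0.0391). Its exons overlap those of Exosc9 on the other strand. Without WT replicate 1 or WT replicate 2 no gene of the list was called, but these fits also called fewer of all genes lower than the fit to all libraries. With each library left out in turn, the log2 difference ran from -1.10 to -0.90 for Mybl2 and from -0.82 to -0.76 for Ccna2. By voom 12 of the 24 were lower, as were 257 of all 10562 genes.

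**Figure D4:**
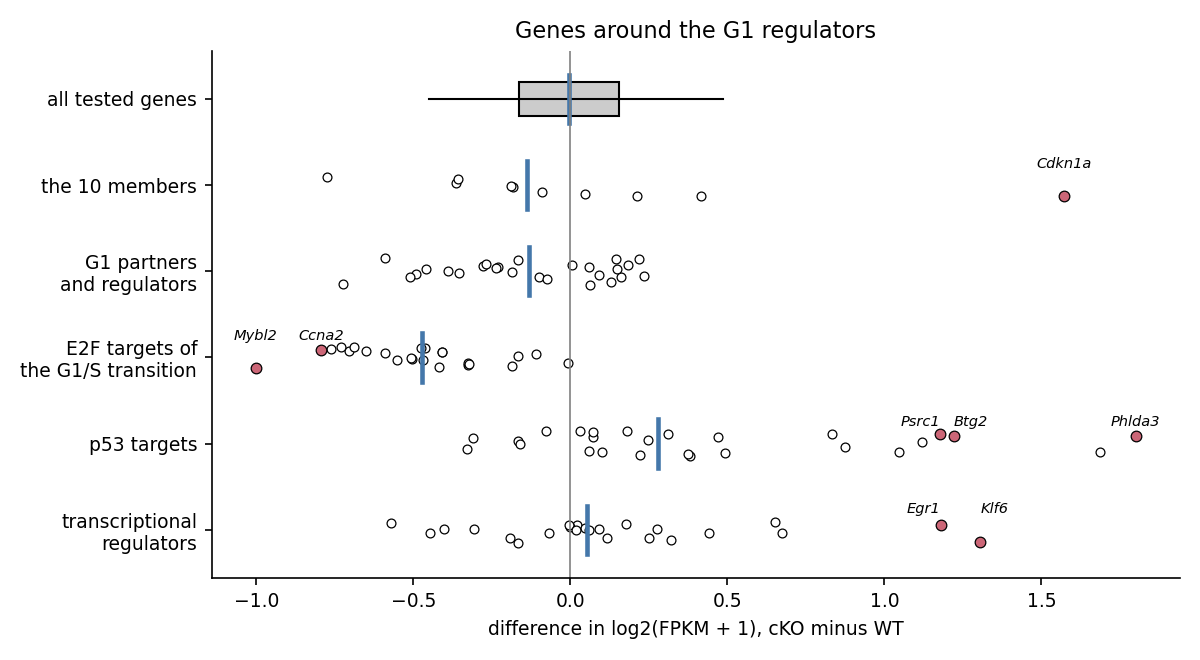
Difference in log2(FPKM + 1) between cKO and WT (x axis) for the 10 genes and 4 gene lists (y axis), each point a gene, filled where past the threshold, with the median as a vertical bar. The top row gives all tested genes as quartiles (-0.17 and 0.15) and the 5 to 95 percentile range (-0.45 to 0.49), and the median bar of the E2F targets stands at -0.47 and that of the p53 targets at 0.28.

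Of 26 tested p53 targets, a list that leaves out Cdkn1a itself, 3 rose and none fell, with a median log2 difference of 0.28. The shares of all tested genes called were 0.814% higher and 0.256% lower. Phlda3, an inhibitor of AKT signalling, had 1.97 and 1.85 FPKM in WT and 9.28 and 8.96 FPKM in cKO (1.80 ± 0.09, SE; limma, adjusted p = 0.0108). Btg2, an antiproliferative gene, had 6.67 and 6.68 FPKM in WT and 17.8 and 16.04 FPKM in cKO (1.22 ± 0.09, adjusted p = 0.0206). Psrc1, which encodes a spindle protein, had 1.44 and 1.57 FPKM in WT and 4.42 and 4.94 FPKM in cKO (1.18 ± 0.10, adjusted p = 0.027). Both cKO values were above both WT values for 15 of the 26 and below them for 4, where 27.2% and 28.7% of all tested genes showed this. By voom 10 of the 26 were higher, as were 286 of all 10562 genes. Without WT replicate 1 or WT replicate 2 only Phlda3 of the list was called, but these fits also called fewer of all genes higher than the fit to all libraries. With each library left out in turn, the log2 difference ran from 1.77 to 1.83 for Phlda3, from 1.15 to 1.29 for Btg2 and from 1.11 to 1.24 for Psrc1. Trp53, the p53 gene itself, looked at after its values were seen, had 36.7 and 38.0 FPKM in WT and 23.0 and 31.9 FPKM in cKO (-0.45, adjusted p = 0.237).

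Of 24 tested genes of transcriptional regulators known to act on the 10 genes, mostly transcription factors but also the receptor Notch1 and the Polycomb protein Bmi1, 2 rose and none fell, with a median log2 difference of 0.05. Among all tested genes, 0.814% rose and 0.256% fell. Klf6, a zinc finger factor known to activate Cdkn1a, had 33.3 and 27.8 FPKM in WT and 83.8 and 70.2 FPKM in cKO (1.31 ± 0.14, SE; limma, adjusted p = 0.0375). Egr1, an early response factor, had 16.05 and 16.1 FPKM in WT and 33.4 and 42.5 FPKM in cKO (1.18 ± 0.14, adjusted p = 0.0391). Neither passed without WT replicate 1 or WT replicate 2, but these fits also called fewer of all genes higher than the fit to all libraries. With each library left out in turn, the log2 difference ran from 1.18 to 1.43 for Klf6 and from 1.01 to 1.35 for Egr1. By voom 4 of the 24 were higher and 1 lower, beside 2.71% and 2.43%.

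The genes whose profile lay nearest to that of Cdkn1a were sought among 6402 other protein-coding genes averaging at least 5 FPKM, by the distance of centred log2(FPKM + 1) over the 4 libraries. They were Ifi27, Isg15 and Slfn1, at distances of 0.0551, 0.143 and 0.178. Isg15 reached that mean through its cKO values (8.72 and 7.37 FPKM, against 2.16 and 2.08 FPKM in WT). Ifi27 and Isg15 are interferon-stimulated genes, and Slfn1 belongs to the Schlafen family. Ifi27 had 8.19 and 6.99 FPKM in WT and 27.2 and 23.6 FPKM in cKO. With 4 libraries, a close profile means a similar step between genotypes and a similar order within them.

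Exons of 3 of the 10 genes overlap a protein-coding gene on the other strand, Ccnd3 with Bysl, Ccne2 with Ints8 and Cdk4 with Tspan31. The sources used here do not say whether counting used the strand. If it did not, reads from the overlapping stretches cannot be assigned to either gene. Cdkn1a, Ccnd2 and Cdk6 share exon bases with noncoding genes of the other strand, and those of Ccnd2 and Cdk6 that were measured had at most 0.36 FPKM.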

How the data were processed

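RNA was sequenced from 2 PP2A WT and 2 PP2A cKO Th17 libraries. The authors deposited FPKM per gene with gene length in bases. The submitters' processing notes name featureCounts 1.5.0-p3, GRCm38 and mm10, with the aligner, release and FPKM tool not given in the sources used here.

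Reads were recovered as multiples of the smallest step in FPKM times length (100% whole, tolerance 0.01 read). limma 3.58.1 in R 4.3.3 was fitted to log2(FPKM + 1), cKO minus WT, with a variance trend, no block, two-sided, on genes whose mean reached 1 FPKM. A fold change on this scale understates low genes. Alternatives changed the pseudocount, filter, scaling, variance model, GC content (GENCODE M21 transcripts), genes tested, libraries or test (voom). The fit was tested on simulated reads with a single dispersion, which real libraries need not follow.

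The members, lists and tests were chosen with earlier results of these data known. Named genes were the 10 members, the PP2A core, from each list at most 3 called genes a direction, else its most changed gene, 5 family members outside the set and the 3 profiles nearest to a called member.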

Additional observations from a re-analysis of the deposited data

How the results depend on the processing

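Of 170 member values under 17 alternatives, 154 kept both direction and side of the threshold. Cdkn1a kept its direction in all 17 and was called in 15, with log2 differences from 1.46 to 1.69. The sign of Ccne2 turned with TPM (-0.042), the GC correction (-0.066, also with the replicate block) and protein-coding genes only (-0.033). With each library left out it ran from -0.13 (without cKO replicate 1) to 0.22, and Cdkn1b from -0.20 to 0.022 (without cKO replicate 2). The cause was not tested. Of 305 values of 18 further named genes 264 kept direction and side, and 7 reversed, all in the PP2A core. Ppp2cb turned with TPM (-0.027) and protein-coding genes only (-0.021), and Ppp2r1a with the GC correction (0.037, also with the replicate block). With each library left out Ppp2cb ran from -0.017 to 0.15, Ppp2r1a from -0.21 to 0.14 and Ppp2r1b from -0.16 to 0.0022.

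Against 86 genes higher and 27 lower in the fit as described, a pseudocount of 0.1 called 15 lower, TPM called 52 higher, the GC correction 285 and 237, protein-coding genes only 188 and 320, and voom 286 and 257. Without a filter limma called 0 in each direction, 0 members and 0 genes of each list, with 3012 genes at an unadjusted p under 0.05. The share of higher genes among those called was 76.1%, and 37% with protein-coding genes only, 54.6% with the GC correction and 52.7% with voom. One member, Cdkn2c, was called lower (1 in place of 0) with the GC correction, protein-coding genes only, voom and the replicate block. Of p53 targets 3 were called higher, and 8, 6 and 10 with the GC correction, protein-coding genes only and voom. Of E2F targets 2 were called lower, and 13, 15 and 12 in these settings. Of G1 partners 0 were called lower, and 3, 4 and 3. Of the transcriptional regulators 2 were called higher and 0 lower, 1 higher with TPM, 4 higher with the GC correction and with voom, and 1 lower with voom and with protein-coding genes only.

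The labels do not say that replicate numbers mark a shared litter or day, and same-numbered deviations from the group means correlated at -0.09 across genes. The replicate block called 154 genes higher and 73 lower, 1 member lower (Cdkn2c, adjusted p = 0.0434) and 5 p53 targets higher. The block with the GC correction called 166 and 86, 0 members lower (Cdkn2c, adjusted p = 0.0590), 7 p53 targets higher and 4 E2F targets lower.

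When each library was left out in turn, 49 to 1390 genes were higher and 6 to 1614 lower, the highest counts being without cKO replicate 2, and the lone library of a genotype is then assumed to vary like the pair that remains. Members called higher ran from 0 to 3 and lower from 0 to 2. The ranges were 1 to 13 p53 targets higher, 0 to 19 E2F targets lower, 0 to 4 G1 partners higher and 0 to 9 lower, 0 to 6 transcriptional regulators higher and 0 to 4 lower, and 0 to 1 PP2A core genes lower. Counted in reads rather than FPKM, which weights long genes, the cKO minus WT difference in the Cdk4 share was -9.34 in place of -4.08 percentage points, and that in the inhibitor to cyclin ratio 0.0617 in place of 0.28.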

Other observations

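Setting members against each other within a library, Ccnd2 was 1.15 and 1.18 times as abundant as Cdk4 in the WT libraries and 2.10 and 1.91 times in the cKO libraries. Cdkn1a was 2.11 and 1.59 times as abundant as Cdkn2c in WT and 11.05 and 8.52 times in cKO. Among the E-type cyclins, Ccne1 took 59.9% and 63.6% of the summed FPKM in WT and 52.95% and 62.0% in cKO, so that 1 cKO library lay within the WT range. Mdm2, a p53 target that encodes the ubiquitin ligase of p53, had 23.0 and 23.8 FPKM in WT and 34.4 and 32.3 FPKM in cKO (log2 difference 0.49 ± 0.09, SE; limma, adjusted p = 0.0775). It was chosen after its values were seen. These values carry no test of their own beyond the one given for Mdm2.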
